A study of Mus musculus with 19 samples.

Results

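The comparison set 3 libraries of blastoids collected on culture day 5 against 3 libraries from day 3, the later days of blastoid culture. These were 6 of the 19 libraries of the study and were chosen by their day labels, with all genes of the count table used: 15121 of 54352 genes had enough counts to be tested. Blastoids are aggregates of stem cells that come to resemble the blastocyst. They were grown here in 3D microwells from TT2, a line of mouse embryonic stem cells that is maintained on inactivated mouse embryonic fibroblasts, called feeders. The labels list every blastoid library, on day 3 as on day 5, as TT2 cells given pladienolide B (PlaB), an inhibitor of the SF3B complex of the spliceosome, at 20 nM for 6 h after 48 h of seeding. The groups therefore shared the cell line and the treatment and differ by label in culture time alone, and no untreated blastoids were part of the comparison. The labels do not say how many aggregates went into a library, nor whether the 3 libraries of 1 day are separate cultures. The p-values rest on the spread within days, pooled over the 15 blastoid libraries of the fit, and that spread may be technical. RNA was polyadenylated RNA amplified as full-length cDNA with Smart-seq2.

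The outer layer of the blastocyst, the trophectoderm, is a polarized epithelium. Apical polarity proteins and active YAP with TEAD4 switch on its transcription factors, among them CDX2, GATA2, GATA3 and TFAP2C. Tight junctions then seal the layer, and the sodium pump and water channels fill the cavity behind it. The inner cells keep pluripotency factors such as NANOG and SOX2, and FGF4 from them directs some neighbours to primitive endoderm.

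Library totals were 4231669 to 6859777 counts on day 3 and 4093751 to 5523515 on day 5. Replicate 3 of each day stood apart, on day 5 in its GC difference only. On day 3 it had a rank correlation across genes of 0.912 and 0.938 with the others, which reached 0.974 with each other. Mitochondrial genes took 13.5% of its counts there against 4.71% and 5.50%. On day 5 its rank correlations were 0.957 and 0.96, against 0.966 between the others. Its mitochondrial share on day 5 was 4.13%, between those of the others (3.38% and 4.58%). Genes rich in GC (at least 54%) stood 0.73 below genes poor in GC (under 42%) in day 3 replicate 3 and 0.74 above them in day 5 replicate 3, as a difference of median log2 deviations, and the difference lay between -0.14 and 0.09 in the remaining 4 libraries. List counts below are therefore also given without both libraries numbered 3, a choice made after seeing the data. Trophectoderm markers (Cdx2, Gata3, Tfap2c, Krt8, Krt18 and Eomes) summed to 50.9 to 75.6 CPM (counts scaled by the effective library total) on day 3 and 956 to 1869 on day 5. Krt8 and Krt18, at day 5 means of 350 and 909 CPM, made up most of the day 5 sums, whereas Cdx2 and Eomes had lower means on day 5 than on day 3. Epiblast markers (Nanog, Sox2, Pou5f1 and Zfp42) summed to 739 to 785 on day 3 and 348 to 598 on day 5. Zfp42, which did not pass the test below, made up most of the day 5 sums. Means of Nanog and Sox2 went from 155 and 184 CPM on day 3 to 39.8 and 23.2 on day 5. The 28 feeder fibroblast markers summed to 899, 1083 and 1667 CPM on day 3 and to 1130, 1820 and 872 on day 5, with overlap. Without S100a6 and Fn1, which epithelial cells also express and which were left out after their values were seen, the other 26 summed to 531, 621 and 1032 CPM on day 3 and to 135, 131 and 117 on day 5. Of all 28 markers, 26, 26 and 25 had a count in the day 3 libraries and 25, 23 and 25 in those of day 5. A subset of 10 was picked by hand: Col1a1, Col1a2, Col3a1, Dcn, Lum, Thy1, Postn, Prrx1, Twist1 and Pdgfrb. None of these was at 0 on day 3, and Col1a1 was at 0 in 2 day 5 libraries and Twist1 in the third.

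**Figure D1:**
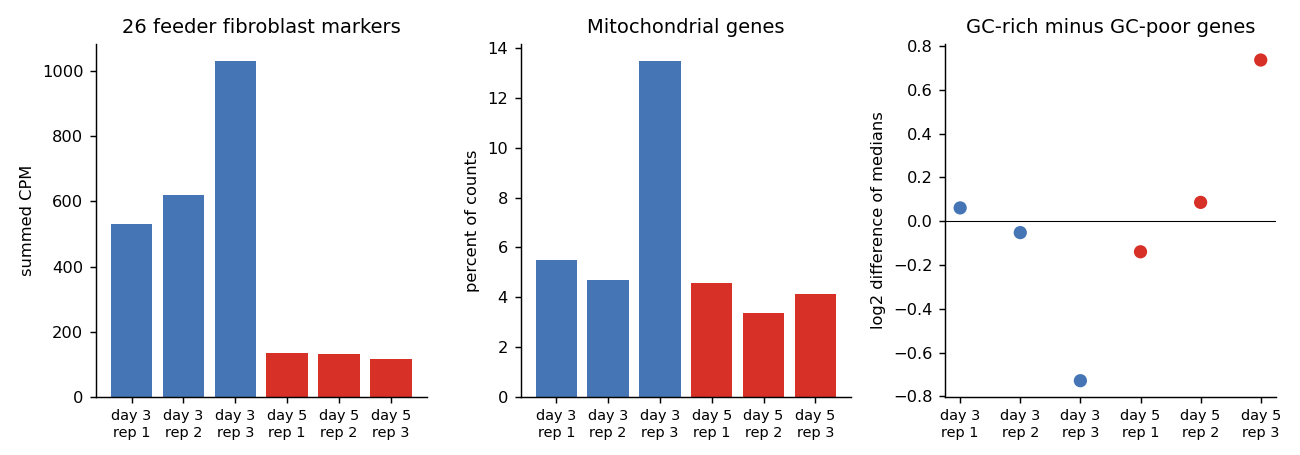
Summed CPM of 26 feeder fibroblast markers (left), percent of counts from mitochondrial genes (middle) and the difference of median log2 deviations between GC-rich and GC-poor genes (right) in the 3 libraries of day 3 (blue) and of day 5 (red). Day 3 replicate 3 has the highest sum of these 26 markers (1032), the highest mitochondrial share (13.5%) and the lowest GC difference (-0.73). Day 5 replicate 3 has the highest GC difference (0.74). S100a6 and Fn1 were left out of the sum after their values were seen, and sums of all 28 markers overlapped between the days.

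Over all genes 2908 rose (19.2% of those tested) and 2691 fell (17.8%), 5599 in all (37.0%), at an adjusted p under 0.05 (edgeR quasi-likelihood test). The rising and falling shares are the background for every list count below. At least 2-fold changes made up 2190 of the rises and 2077 of the falls, and the median log2 fold change over all tested genes was 0.02. Without both libraries numbered 3, 2942 rose and 2713 fell. The libraries of the days did not overlap for 6509 genes (43.0%). Calls went with base composition: among genes under 42% GC 13.4% rose and 27.7% fell, and among genes of at least 54% GC 23.2% rose and 9.2% fell. Day 4 lay between the days for most called genes, with its mean between those of days 3 and 5 for 1828 of 2908 rising and 2066 of 2691 falling genes. It was at or beyond the day 5 mean for 500 and 273 of them, and on the far side of the day 3 mean for 580 and 352.

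**Figure D2:**
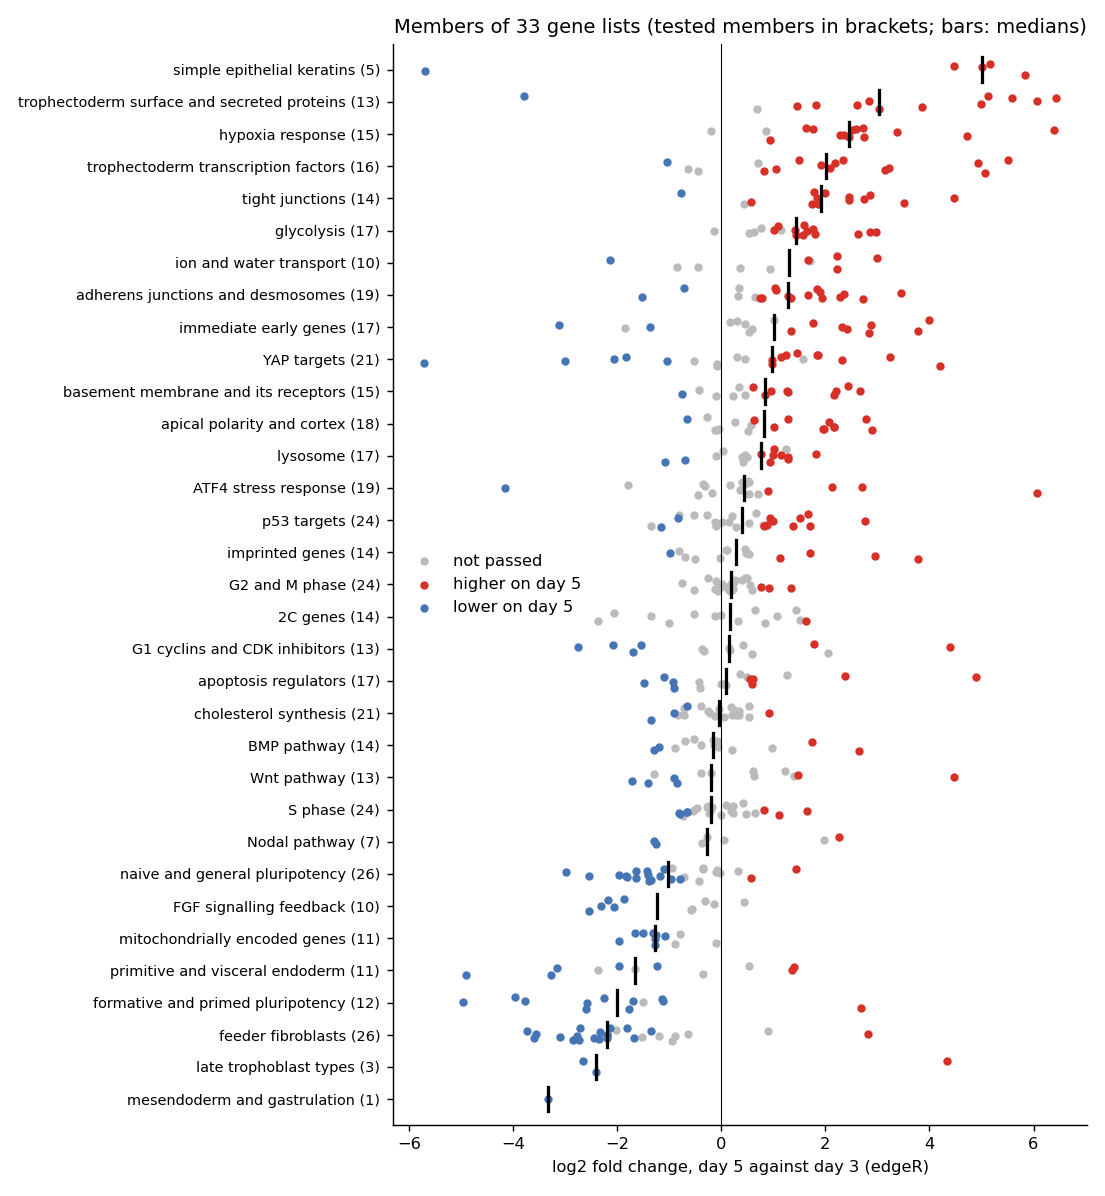
Each point is a tested member of 1 of 33 gene lists, placed by its log2 fold change of day 5 against day 3. Red and blue points passed the test as higher and lower on day 5, grey points did not pass, and black bars are list medians, which run from -3.32 for the single tested mesendoderm gene and -2.41 for late trophoblast genes to 5.02 for simple epithelial keratins.

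Keratins of simple epithelia showed the highest median of the lists. Of 5 tested members 4 rose and 1 fell, with a median log2 fold change of 5.02, and the same counts held without both libraries numbered 3. Krt18 (chromosome 15, 102028180 to 102032027, GRCm38) and Krt8 (chromosome 15, 101996698 to 102004482) form the paired filament of the trophectoderm. Krt18 stood at 21.4, 30.5 and 24.4 CPM in the 3 day 3 libraries and at 766, 637 and 1325 on day 5, which is a log2 fold change of 5.16 ± 0.34 (value ± SE, with adjusted p = 2.80e-09). Krt8 was at 8.31, 12.7 and 11.4 CPM and then at 319.9, 253 and 478 (5.02 ± 0.35, adjusted p = 4.21e-09). Every day 5 library lay more than 10-fold above every day 3 library for both. Krt19, another keratin of simple epithelia, went from 0.678, 0.907 and 0.698 to 37.98, 39.0 and 58.4 CPM (5.84 ± 0.45), and Krt7 from 2.88, 4.38 and 4.65 to 63.3, 65.5 and 135 (4.48 ± 0.45). Krt8 overlaps the annotated gene Gm36026, and the strand setting of the counting is not given. Krt23 moved the other way, with 0 counts in all day 5 libraries, and was at least 4.78-fold lower, a bound set by 3 counts over the day. Since these are whole aggregates, more cells of a type and more RNA per cell cannot be told apart, here or below.

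Most tested transcription factors of the trophectoderm rose. Of 16 tested members 12 rose and 1 fell (median 2.00), and the same counts held without both libraries numbered 3. Gata2 (chromosome 6, 88193891 to 88207032), a GATA factor of trophectoderm and trophoblast, had 2.03, 2.27 and 2.79 CPM on day 3 and 94.2, 56.3 and 65.8 on day 5 (log2 fold change 4.94 ± 0.30, adjusted p = 2.63e-09). Gata3 (chromosome 2, 9857078 to 9890034), its partner in the lineage, had 6.44, 7.26 and 8.84 CPM and then 48.3, 27.0 and 20.6 (2.09 ± 0.32, adjusted p = 3.88e-05). The days did not overlap for either gene. Hand1, a factor of trophoblast giant cells, was close to the detection limit on day 3 at 0, 0.907 and 0.233 CPM and reached 13.7, 22.9 and 22.1 on day 5. Its log2 fold change of 5.50 ± 0.68 ranged from 4.92 without day 3 replicate 1 to 7.35 without day 3 replicate 2. Tfap2c, an AP-2 factor that acts with the GATA factors, rose by 1.497 ± 0.28, from 10.5, 17.1 and 24.9 to 66.7, 37.6 and 42.5 CPM. Id2, an inhibitor of basic helix-loop-helix factors and an early mark of outer cells, went from 87.5, 84.1 and 66.1 to 737, 717 and 639 CPM (3.14 ± 0.21, adjusted p = 3.37e-09). Arid3a, a DNA-binding protein needed for trophectoderm, rose by 3.22 ± 0.30, and the homeobox gene Msx2 by 2.18 ± 0.32.

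The factors that mark trophoblast stem cells were low on both days. Cdx2 averaged 0.361 CPM on day 3 and 0.0715 on day 5, and Elf5 0.0565 and 0.860, below what could be tested. Eomes, the T-box factor that maintains these stem cells, fell by 1.05 ± 0.40, from 4.24, 7.56 and 5.12 to 2.57, 2.23 and 3.30 CPM (adjusted p = 0.0426). No member of the list fell without day 3 replicate 2 or without any 1 of the day 5 libraries. Tead4, the DNA-binding partner of YAP, did not pass (0.71 ± 0.38, adjusted p = 0.151), nor did Grhl2 (-0.44 ± 0.24) and Tfap2a (-0.64 ± 0.48).

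Cell surface and secreted products of the trophectoderm followed the same direction. Of 13 tested members 11 rose and 1 fell (median 3.02), against 10 and 1 without both libraries numbered 3. Plac1 (chromosome X, 53069995 to 53240111), an X-linked placental membrane protein, was at 2.20, 3.02 and 3.02 CPM on day 3 and at 263, 125 and 169.8 on day 5 (6.07 ± 0.41, adjusted p = 2.80e-09). Rhox6 and Rhox9, neighbouring X-linked homeobox genes of placenta, rose by 4.99 ± 0.33 and 5.12 ± 0.36. Rhox6 went from 58.3, 41.7 and 36.1 to 1582, 1188 and 1564 CPM, and because the 2 genes are near-identical copies the split of reads between them is uncertain. Lgals3, the galectin-3 gene, rose by 3.86 ± 0.28 from 12.9, 16.0 and 9.31 to 167, 169.5 and 224 CPM. Tinagl1, a secreted matricellular protein of the trophoblast, had 0.509, 1.21 and 1.16 CPM and then 37.1, 37.4 and 65.6 (5.59 ± 0.53). Receptor and transporter genes of the layer rose as well, with Fgfr2, the receptor through which FGF4 acts on trophoblast, at 3.02 ± 0.32, and the glucose transporter gene Slc2a1 at 2.84 ± 0.27. Dppa1 had 2 counts in all on day 3, and its ratio was 101 (95% counting interval 27.5 to 841). The tetraspanin gene Tspan8 fell by 3.80 ± 0.83. Sfn, the epithelial 14-3-3 sigma gene, rose by 1.45 ± 0.40, and the endocytic receptor gene Lrp2 did not pass (0.68 ± 0.36, adjusted p = 0.146).

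**Figure D3:**
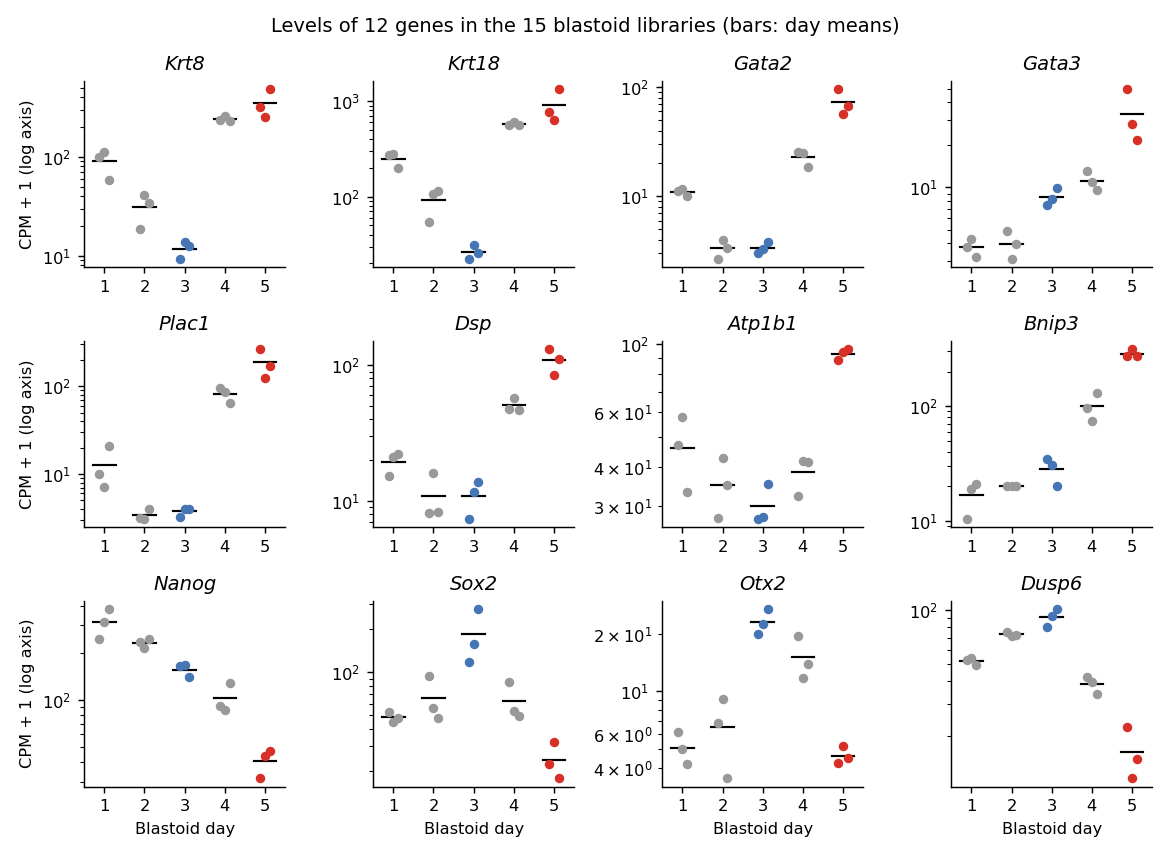
Levels of 12 genes in the 15 blastoid libraries, as CPM + 1 on a log axis against culture day, with day 3 in blue, day 5 in red, other days in grey and day means as black bars. Krt8 and Krt18 go from means of 89.2 and 249 CPM on day 1 to 10.8 and 25.4 on day 3 before reaching 350 and 909 on day 5, and Sox2 is highest on day 3, at a mean of 184.

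Genes of tight junctions, which seal the epithelium, rose nearly throughout. Of 14 tested members 12 rose and 1 fell (median 1.92), against 13 and 0 without both libraries numbered 3. Cgn, encoding the junction plaque protein cingulin, went from 8.31, 7.86 and 14.2 to 53.4, 50.5 and 61.3 CPM (2.46 ± 0.25, adjusted p = 3.85e-07). Among the claudins, the strand-forming proteins, Cldn7 rose from 7.46, 7.11 and 9.77 to 40.1, 59.4 and 76.1 CPM (2.86 ± 0.34), Cldn3 by 4.47 ± 0.56, Cldn4 by 2.46 ± 0.51 and Cldn6 by 1.86 ± 0.33. Cldn3 was under 1 CPM in each day 3 library, and its value was 5.36 without day 3 replicate 1. Cldn12, which lacks the usual binding motif of the family, fell by 0.77 ± 0.27 (adjusted p = 0.0277), a call lost without day 3 replicate 2 or 3 or day 5 replicate 1 or 3. F11r, the adhesion molecule JAM-A, rose by 1.83 ± 0.26, occludin (Ocln) by 1.98 ± 0.29 and tricellulin (Marveld2) by 2.74 ± 0.43. Tjp1, the scaffold ZO-1, had 61.2, 75.6 and 123 CPM on day 3 and 177, 84.8 and 90.0 on day 5, with overlap (0.44 ± 0.28, adjusted p = 0.225). It passed without day 3 replicate 3, whose level was the highest of its day (0.77, adjusted p = 0.0221).

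Adherens junction and desmosome genes rose in 14 of 19 cases and fell in 2 (median 1.29), against 13 and 2 without both libraries numbered 3. Dsp (chromosome 13, 38151294 to 38198577), desmoplakin, which ties desmosomes to keratin filaments, went from 6.44, 10.7 and 12.8 to 130.2, 83.9 and 111 CPM (3.45 ± 0.31, adjusted p = 9.35e-08). Pkp2, the plakophilin of the same plaque, went from 27.8, 23.6 and 28.6 to 231, 136 and 163 (2.73 ± 0.26), and the plakin gene Ppl rose by 2.37 ± 0.31. Ctnna1, alpha-catenin, which links cadherins to actin, rose by 1.68 ± 0.21 from 215, 199 and 173 to 704, 543 and 632 CPM. Cdh1 (chromosome 8, 106603351 to 106670246), E-cadherin, had 112, 159 and 382 CPM on day 3 and 521, 399 and 429 on day 5 (1.05 ± 0.31, adjusted p = 0.0123). Day 3 replicate 3 lay close to the day 5 libraries for this gene. Without it the value was 1.72, and without day 3 replicate 1 or 2 the call was lost (0.74, adjusted p = 0.0503, and 0.87, adjusted p = 0.0673). Epcam, an adhesion molecule that the stem cells also carry, did not pass (0.33 ± 0.21, adjusted p = 0.222). The members that fell were Nectin3, a nectin (-1.52 ± 0.26), and Pkp4 (-0.72 ± 0.21).

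Sodium pump and water channel genes were divided. Of 10 tested members 4 rose and 1 fell (median 1.30, and 0.93 with the same counts without both libraries numbered 3), and 5 others were too low to test. Atp1b1, the beta subunit of the sodium pump, rose from 26.3, 26.6 and 34.2 to 87.3, 92.9 and 94.9 CPM with no overlap (1.66 ± 0.24, adjusted p = 2.06e-05). Fxyd4, a regulator of the pump, rose by 3.00 ± 0.44. Aqp3, a water and glycerol channel, went from 1.36, 3.02 and 1.86 to 7.51, 10.6 and 11.8 CPM (2.23 ± 0.42), and Aqp11, an intracellular channel, fell from 5.09, 4.99 and 6.75 to 2.57, 0.279 and 0.776 (-2.14 ± 0.50, and -3.25 without day 5 replicate 1).

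Apical polarity genes rose in 10 of 18 tested cases and fell in 1 (median 0.82), against 11 and 0 without both libraries numbered 3, and with none lower without day 3 replicate 3 or day 5 replicate 2 or 3. Amot, the angiomotin that couples polarity to Hippo signalling, went from 15.8, 18.3 and 33.7 to 244, 151 and 104 CPM (2.89 ± 0.41, adjusted p = 1.73e-05). Podxl, podocalyxin, a sialomucin of apical membranes, went from 11.2, 9.52 and 18.4 to 82.0, 79.7 and 104 CPM (2.78 ± 0.35). Pard6b, of the PAR complex that builds the apical domain, rose by 2.17 ± 0.27, and Patj and Crb3 of the Crumbs complex by 2.16 ± 0.33 and 1.96 ± 0.31. The member that fell was Eps8, an actin regulator (-0.65 ± 0.22). Ezrin (Ezr), which ties the membrane to cortical actin, rose by 1.01 ± 0.19, whereas Pard3 (0.52 ± 0.24, adjusted p = 0.0906) and Scrib (0.26 ± 0.36) did not pass. For YAP targets the count was 10 higher and 5 lower of 21 (median 0.97), against 10 and 3 without both libraries numbered 3. Among those that rose were the tissue factor gene F3 (3.25 ± 0.26), Myof (2.31 ± 0.23), Amotl2 (1.85 ± 0.29), Cyr61 (1.45 ± 0.42) and Ankrd1, which went from 0.339, 0.454 and 0 to 5.36, 6.97 and 4.85 CPM (4.21 ± 0.79). Ctgf did not pass (-0.52 ± 0.38, adjusted p = 0.297). Nt5e (-2.06 ± 0.30), Axl (-2.996 ± 0.57) and Ccdc80 (-1.83 ± 0.67), which fibroblasts express too, were among the members that fell, with Gadd45a (-1.04 ± 0.29) and Fjx1, which had 0 counts on day 5 and was at least 4.78-fold lower. The sum of 26 feeder markers was lower on day 5 and that of all 28 overlapped between the days, and the part of feeder RNA in these falls was not tested.

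Basement membrane genes rose in 9 of 15 cases and fell in 1 (median 0.83), against 10 and 1 without both libraries numbered 3 and 5 higher without day 3 replicate 2. Col4a2, the alpha 2 chain of type IV collagen, rose from 13.6, 13.2 and 21.2 to 91.6, 118 and 93.5 CPM (2.67 ± 0.28, adjusted p = 6.72e-07) and its head-to-head neighbour Col4a1 by 1.26 ± 0.33. The 2 loci overlap, and the strand setting of the counting is not given. Lama5, the laminin alpha 5 chain, went from 6.95, 8.77 and 10 to 29.8, 42.1 and 66.9 CPM (2.44 ± 0.29), the perlecan gene Hspg2 rose by 2.20 ± 0.42, and the dystroglycan gene Dag1 by 1.28 ± 0.23. Nid2, a nidogen, fell by 0.75 ± 0.25, a call lost without day 3 replicate 1 or 3 or day 5 replicate 1 or 2.

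Keratins and several junction genes had lower means on day 3 than on day 1. The change from day 3 to day 5 was tested against that from day 1 to day 3, and both share the day 3 libraries. It was above the earlier change for 2995 genes (19.8%) and below it for 3017 (20.0%). Krt18 changed by -3.29 from day 1 to day 3 and by 5.16 from day 3 to day 5, a difference of 8.44 ± 0.63 (adjusted p = 2.93e-08). Krt8 had -3.04 and then 5.02, and Gata2 -2.07 and then 4.94. For Cldn4 the values were -4.11 and 2.46, and for Aqp3 -3.37 and 2.23, so that both stayed below their day 1 means on day 5 (6.82 against 21.6 CPM for Cldn4 and 9.98 against 22.2 for Aqp3). Dsp had -0.90 and 3.45, Cldn6 -1.64 and 1.86, and Atp1b1 -0.63 and 1.66, and the difference passed for each. The factors Gata3 (1.46 and then 2.09, adjusted p of the difference 0.404) and Tfap2c (0.23 and 1.497, 0.051) and the adhesion genes Cdh1 (1.60 and 1.05, 0.43) and Tjp1 (1.03 and 0.44, 0.342) did not pass. Tfap2c passed without day 3 replicate 3 (1.91), without day 5 replicate 2 (1.43) and without day 5 replicate 3 (1.38).

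**Figure D4:**
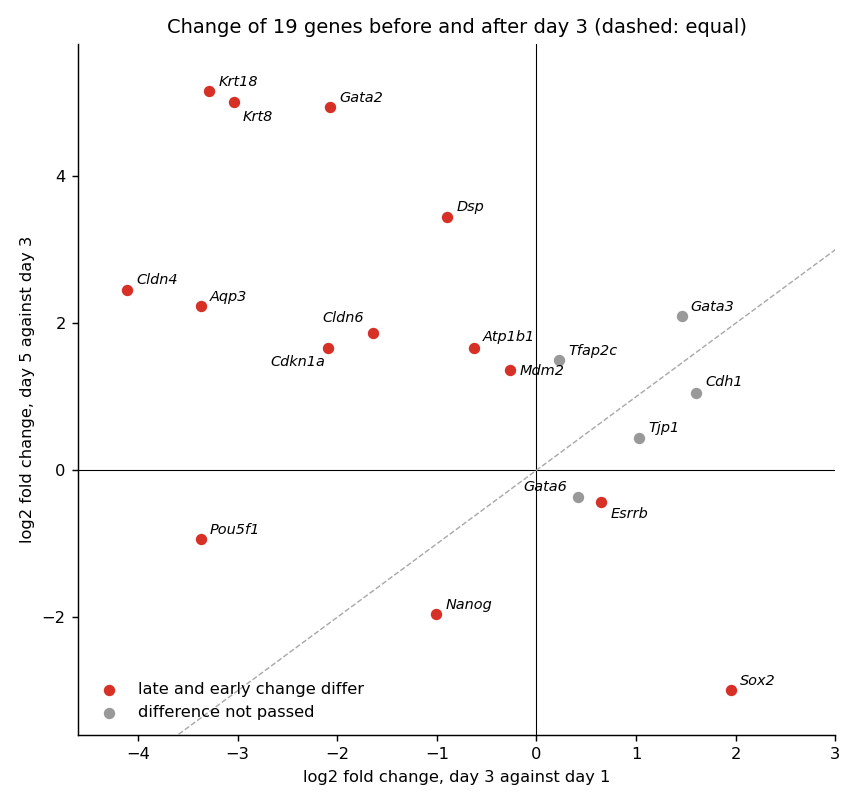
Log2 fold change from day 3 to day 5 (vertical axis) against that from day 1 to day 3 (horizontal axis) for 19 genes; both use the day 3 libraries. Red genes differ between the spans at an adjusted p under 0.05 and grey genes do not pass, with Krt18 (-3.29 and 5.16), Krt8 and Gata2 at the upper left and Sox2 (1.95 and -2.99) at the lower right.

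Most tested pluripotency genes of the formative state fell over the same days; this state is the step between naive and primed pluripotency. Of 12 tested formative and primed genes 10 fell and 1 rose (median -2.01), the same without both libraries numbered 3. Otx2 (chromosome 14, 48657677 to 48673819), which directs the exit from the naive state, fell from 18.8, 21.5 and 25.8 to 3.22, 4.18 and 3.49 CPM (-2.60 ± 0.37, adjusted p = 1.95e-05), and Lef1, the Wnt effector, from 25.3, 29.0 and 24.4 to 4.08, 4.74 and 4.27 (-2.59 ± 0.30). The ETS factor genes Etv5 and Etv4, which respond to FGF, fell by 1.77 ± 0.21 and 3.97 ± 0.53 (the latter -5.00 without day 5 replicate 3), and the de novo DNA methyltransferase genes Dnmt3a and Dnmt3b by 1.13 ± 0.22 and 1.12 ± 0.21. Foxd3 had 2 counts in all on day 5, with a ratio of 34.3 (95% counting interval 9.2 to 288) for day 3 over day 5. Pou3f1, the factor Oct6, was the member that rose (2.68 ± 0.62), to 9.44, 4.18 and 5.05 CPM from 0.678, 1.97 and 0.

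Naive and general pluripotency genes fell in 15 of 26 cases and rose in 2 (median -1.03), against 18 and 2 without both libraries numbered 3. Sox2 (chromosome 3, 34650405 to 34652461) had 117, 156 and 277 CPM on day 3 and 21.5, 31.2 and 16.9 on day 5 (-2.99 ± 0.34, adjusted p = 1.60e-06). Nanog (chromosome 6, 122707489 to 122714633) had 162, 165 and 138 CPM and then 30.5, 42.9 and 45.99 (-1.96 ± 0.23, adjusted p = 2.21e-06). The days did not overlap for either factor. Tet1, a DNA demethylase, fell by 1.82 ± 0.23, the TGF-beta family gene Gdf3 by 2.54 ± 0.34 and the nuclear receptor gene Nr5a2 by 1.8 ± 0.26. Other members of the same network did not pass or rose. Zfp42 had a difference of -0.09 ± 0.24 (adjusted p = 0.806) and Tfcp2l1 of -0.11 ± 0.19 (adjusted p = 0.685), and Esrrb had 66.6, 75.9 and 68.6 and 35.6, 55.2 and 65.4 CPM (-0.43 ± 0.24, adjusted p = 0.173). Esrrb passed without both libraries numbered 3 (-0.66, adjusted p = 0.0485) and with the GC trend removed (-0.72). Klf4, a naive factor that differentiated epithelia also carry, rose from 77.6, 118 and 163 to 336, 419 and 216 CPM (1.44 ± 0.30), and Fbxo15 rose by 0.56 ± 0.21. Of the list 1 gene rose, not 2, without day 3 replicate 1 or 2 or any 1 of the day 5 libraries. Pou5f1, the gene of OCT4, was low on both days at 3.90, 4.08 and 3.02 and 1.72, 1.39 and 2.52 CPM and did not pass (-0.94 ± 0.41, adjusted p = 0.0743). It passed without both libraries numbered 3 (-1.34, adjusted p = 0.0415) and with the GC trend removed (-1.29), and its locus overlaps Gm19553, so its counts are uncertain.

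Before day 3 these genes had moved in different ways. Sox2 had 1.95 from day 1 to day 3 and -2.99 after it, a difference of -4.94 ± 0.53 (adjusted p = 1.08e-06). Nanog had -1.01 and then -1.96, and the difference of -0.96 ± 0.38 lay close to the threshold (adjusted p = 0.0488). It was lost without day 1 replicate 1 or 2, day 3 replicate 1 or 2 and day 5 replicate 1 or 2, at values from -1.005 to -0.79, and with the GC trend removed (-0.61, adjusted p = 0.219). Esrrb (0.65 and -0.43) also lost its difference of -1.09 ± 0.41 in 7 of the 9 fits that left out 1 library (all but day 3 replicate 3 and day 5 replicate 3), at values from -1.16 to -0.87. Pou5f1 had -3.37 and then -0.94, and the difference of 2.43 did not pass with the GC trend removed (0.90) or without both libraries numbered 3 (1.92, adjusted p = 0.0583).

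Genes of FGF signalling feedback, which report activity of the ERK pathway, fell in 5 of 10 cases and rose in none (median -1.23, with the same counts without both libraries numbered 3). Dusp6 (chromosome 10, 99263231 to 99267489), the ERK phosphatase, went from 78.7, 90.9 and 99.8 to 21.5, 10.6 and 13.8 CPM (-2.54 ± 0.23, adjusted p = 1.12e-07). Spred1, an inhibitor of RAS signalling, went from 138, 145 and 176 to 31.5, 33.2 and 28.3 (-2.30 ± 0.19). The Sprouty genes Spry4 and Spry2 fell by 2.06 ± 0.32 and 2.18 ± 0.37, and the phosphatase gene Dusp4 by 1.87 ± 0.51. The ligand gene Fgf4, made by epiblast cells, fell from 68.0, 63.0 and 97.0 to 21.9, 37.9 and 41.1 CPM (-1.17 ± 0.25), while the receptor gene Fgfr2 rose as given above and Fgfr1 did not pass (-0.31 ± 0.27).

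Components of the other embryonic signals moved gene by gene. In the BMP pathway 2 of 14 rose and 2 fell (median -0.15), near or under the shares over all tested genes (19.2% and 17.8%). The falls numbered 1 without day 5 replicate 2 or 3. Without both libraries numbered 3 the counts were 2 and 1, and the median was 0.13. The receptor gene Bmpr1a rose from 90.4, 114 and 165 to 539, 367 and 327 CPM (1.74 ± 0.26) and the ligand gene Bmp8b by 2.64 ± 0.48 (3.55 without day 3 replicate 3). The ligand gene Bmp4, which epiblast makes for the trophoblast above it, fell by 1.29 ± 0.34, from 17.6, 17.99 and 13.3 to 2.79, 8.92 and 8.54 CPM. Smad1, a transducer of BMP, fell by 1.203 ± 0.35, a call lost without day 5 replicate 2 (-1.02) or 3 (-1.005). Among 7 Nodal pathway genes 1 rose and 2 fell (median -0.28), the same without both libraries numbered 3: the transducer Smad3 rose by 2.25 ± 0.29, the co-receptor gene Tdgf1 fell from 483, 406 and 519 to 119.7, 232 and 224 CPM (-1.29 ± 0.28), and Nodal fell by 1.25 ± 0.38, a call lost without day 3 replicate 3 (-0.83) or day 5 replicate 1 (-0.94). Lefty1 and Lefty2, targets and inhibitors of Nodal, were too low to test. In the Wnt pathway 2 of 13 rose and 4 fell (median -0.20, and 0.44 without day 3 replicate 3). Wnt7b, a ligand gene of trophectoderm and placenta, went from 0.339, 0.454 and 0 to 3.65, 6.13 and 10.9 CPM (4.47 ± 0.72), and the receptor gene Fzd7, which stem cells use, fell by 1.42 ± 0.29. Tcf7l1, a repressor of Wnt targets, rose by 1.47 ± 0.40, and the other falls were Nkd2 (-1.71 ± 0.66), Lgr4 (-0.91 ± 0.30) and Tcf7 (-0.84 ± 0.23). The falls numbered 2 without day 5 replicate 3, and 4 rose and 3 fell without both libraries numbered 3. The feedback genes Axin2 (0.62 ± 0.35, adjusted p = 0.169) and Sp5 (-1.30 ± 0.54, adjusted p = 0.0636) did not pass.

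Markers of the other lineages were low. Gata6, the first factor of primitive endoderm, had 4.41, 2.57 and 3.95 CPM on day 3 and 3.00, 2.51 and 2.91 on day 5 (-0.36 ± 0.44, adjusted p = 0.553). Sox17 averaged 0.589 and 0.638 CPM and Gata4 0.409 and 0.444, too low to test. Of 11 tested endoderm genes 5 fell and 2 rose (median -1.66), but 2 fell and 1 rose without both libraries numbered 3 (median -1.05). The median was -0.75 without day 3 replicate 1. Pdgfra, a receptor of primitive endoderm and of fibroblasts, fell by 1.97 ± 0.53 (-1.23 and adjusted p = 0.108 without both libraries numbered 3). Fst, follistatin, fell by 3.16 ± 0.37, the endocytic receptor gene Cubn by 4.90 ± 1.28 and the adaptor gene Dab2 by 1.24 ± 0.42. Sox7, an endoderm factor, had a ratio of 10.4 (95% counting interval 3.29 to 52.4) for day 3 over day 5. Most tested feeder markers fell between the same days, and their part in these falls was not tested. Rhox5, an X-linked homeobox gene of both extra-embryonic lineages, rose by 1.40 ± 0.26. Apoe had 79.5, 69.1 and 44.7 and 76.6, 123 and 297 CPM, with overlap, and its call (1.36 ± 0.37) was lost without day 3 replicate 3 (1.15) and without day 5 replicate 3 (0.63). T, brachyury, was the 1 mesendoderm gene of 9 with enough counts to test, and fell from 6.10, 7.56 and 6.98 to 0.858, 0.558 and 0.582 CPM (-3.32 ± 0.59), also without both libraries numbered 3. Of 12 genes of later trophoblast types 9 were too low to test, 1 rose and 2 fell, against 1 and 1 without both libraries numbered 3. Gcm1, which starts syncytiotrophoblast formation, rose from 0.848, 0.454 and 0 to 13.1, 6.41 and 10.1 CPM (4.35 ± 0.61, and 5.11 without day 3 replicate 1), and the syncytin gene Synb fell by 2.66 ± 0.67. Prl2c2, of the prolactin family with near-identical copies, fell by 2.41 ± 0.82, a call that each library but day 5 replicate 1 could end when left out, and -3.69 without that library.

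Genes of the response to low oxygen rose almost throughout, and the list held some of the steepest rises outside the trophectoderm and keratin lists. Hypoxia-inducible factors bind the letters ACGTG in the promoters of such genes when oxygen falls and prolyl hydroxylases no longer mark the factors for destruction. Of 15 tested members 13 rose and none fell (median 2.45), the same without both libraries numbered 3. Adm (chromosome 7, 110627661 to 110629820), adrenomedullin, a secreted peptide of trophoblast, had 0.339, 0 and 0.698 CPM on day 3 and 29.4, 24.3 and 28.1 on day 5 (6.40 ± 0.58, adjusted p = 1.01e-07; 5.73 without day 3 replicate 2 and 7.23 without day 3 replicate 3). Ndrg1, a stress-responsive gene of trophoblast, went from 0.848, 2.57 and 3.26 to 62.7, 45.5 and 63.8 CPM (4.71 ± 0.34). Bnip3 (chromosome 7, 138890836 to 138909519), which directs mitochondria to autophagy, went from 33.6, 29.6 and 19.3 to 275, 312 and 269.5 (3.37 ± 0.28, adjusted p = 3.72e-08). In each of these genes the lowest day 5 library lay far above the highest day 3 library. Ero1l, the oxidase that forms disulphide bonds in secreted proteins, rose by 2.72 ± 0.27, and Vegfa, the endothelial growth factor gene, went from 4.92, 7.26 and 13.5 to 66.1, 57.2 and 45.99 CPM (2.75 ± 0.39). The prolyl hydroxylase genes Egln1 and Egln3, which restrain the factors and are their targets, rose by 2.51 ± 0.28 and 1.77 ± 0.22, and the collagen prolyl hydroxylase genes P4ha1 and P4ha2 by 2.36 ± 0.30 and 2.58 ± 0.39. Car9, a classical target, stayed near the detection limit (0.85 ± 0.70, adjusted p = 0.362), and Pdk1 did not pass (-0.19 ± 0.18, adjusted p = 0.444).

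The letters ACGTG, read on both strands, were found in 11 of 18 promoter windows of the 13 hypoxia genes that the RefSeq promoter table holds (61.1%). They stood in 25.2% of the 13221 windows of tested genes and in 19.6% of all 32851 windows, and in 13 of 27 windows of 16 glycolysis genes (48.1%). A window runs from 250 bases before to 50 bases after a gene's start, and a match is a description, not a shown site. Members were chosen as genes of the response to low oxygen, and windows of rising and other genes were not compared. Of the 13 genes, 9 had a match upstream of a start, a count not made for other genes. Adm, Kdm3a and Higd1a, which rose, had none, and neither had Pdk1, whereas Car9, which did not pass, had 1. CACGTG holds a match on each strand, and Pfkfb3 also had a match at another start. The stretches around upstream matches that lie outside annotated exons are given for 5 genes that rose (RefSeq, GRCm38.p6), in lower case with the match in capitals. They lie at chr7:138909584-138909639 (minus strand) for Bnip3, chr12:54204074-54204124 (minus) for Egln3, chr2:11502113-11502168 (minus) for Pfkfb3, chr10:59323255-59323295 (plus) for P4ha1 and chr11:54100821-54100875 (plus) for P4ha2.
Bnip3: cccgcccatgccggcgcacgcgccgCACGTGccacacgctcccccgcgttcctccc
Egln3: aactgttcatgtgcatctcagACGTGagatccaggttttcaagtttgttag
Pfkfb3: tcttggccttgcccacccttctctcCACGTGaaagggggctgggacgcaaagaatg
P4ha1: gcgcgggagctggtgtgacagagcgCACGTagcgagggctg
P4ha2: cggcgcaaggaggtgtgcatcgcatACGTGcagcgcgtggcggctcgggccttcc

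Glycolysis genes rose in 12 of 17 cases and fell in none (median 1.44), against 10 and 0 without both libraries numbered 3 (median 1.05). Aldoc, an aldolase, went from 7.46, 4.69 and 3.26 to 27.5, 35.1 and 60.5 CPM (2.98 ± 0.43), Hk1, the first enzyme of the pathway, from 2.37, 3.48 and 1.86 to 13.5, 23.7 and 20.6 (2.86 ± 0.38), and Gpi1, the isomerase after it, from 53.2, 51.4 and 26.5 to 207, 222 and 389.7 (2.64 ± 0.30). The glucose transporter gene Slc2a3 rose by 1.59 ± 0.23 from 357, 394 and 538 to 1087, 1310.0 and 1474 CPM. In several genes of this list the library numbered 3 was the lowest of day 3 and the highest of day 5, as in Pgk1 (655, 542 and 306 and then 1581, 1393 and 2154 CPM, 1.77 ± 0.27) and Eno1 (431, 273 and 66.5 and then 395, 546 and 1127, 1.42 ± 0.51). Those 2 libraries also held the lowest and the highest GC difference, and its part in these rises was not tested. Hk2 (-0.14 ± 0.22, adjusted p = 0.645), Ldha (0.63 ± 0.34, adjusted p = 0.156), Pgam1, Pfkm and Slc16a3 did not pass. On day 1 some of these genes had been higher than on day 5, Gapdh at a mean of 5746 CPM against 1703.

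**Figure D5:**
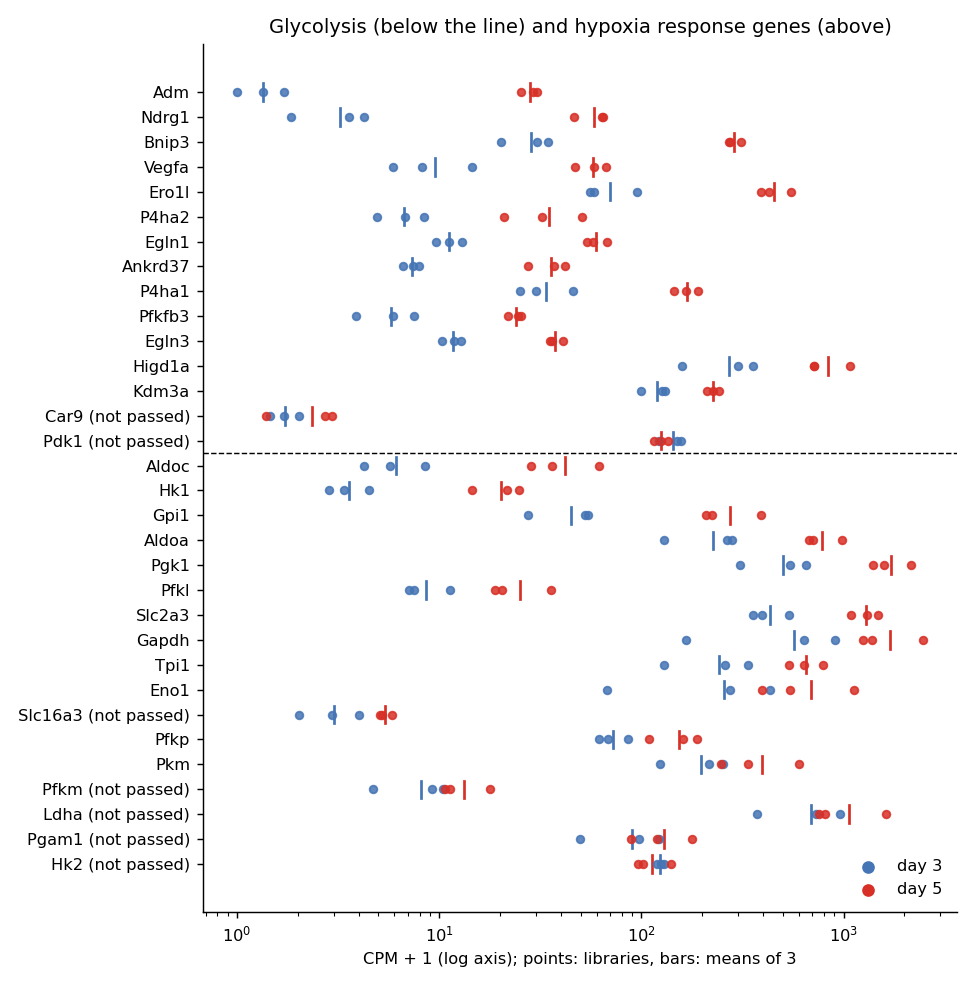
CPM + 1 on a log axis for the tested hypoxia response genes (above the dashed line) and glycolysis genes (below it), with 1 point per library of day 3 (blue) and day 5 (red) and bars at the means of 3. Adm, Ndrg1 and Bnip3 show the widest gaps, while points overlap for Eno1 and Pkm, which passed, and for Ldha and Hk2, which did not.

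Stress genes of other kinds rose in part. Of 24 p53 targets 9 rose and 2 fell (median 0.40), against 9 and 4 without both libraries numbered 3 and 1 lower without day 5 replicate 1 or 2. Plk2, a polo-like kinase, went from 21.4, 28.7 and 28.6 to 238, 139 and 154 CPM (2.76 ± 0.23, adjusted p = 3.40e-08), Btg2, an antiproliferative factor, rose by 1.71 ± 0.21, and Mdm2, the ubiquitin ligase that restrains p53, by 1.37 ± 0.20. Cdkn1a, the CDK inhibitor p21, had 62.2, 53.7 and 15.6 CPM on day 3 and 119.7, 116 and 182 on day 5 (1.66 ± 0.33). From day 1 to day 3 it had a log2 fold change of -2.09, and the difference between the spans was 3.75 ± 0.60 (adjusted p = 8.11e-05). For Mdm2 the values were -0.26 and 1.37. The pro-apoptotic target Pmaip1, NOXA, fell by 1.16 ± 0.21 and Ddit4l by 0.83 ± 0.27, and Trp53 did not pass (-0.12 ± 0.37). Immediate early genes rose in 8 of 17 cases and fell in 2 (median 1.02), against 9 and 0 without both libraries numbered 3 and 1 lower without day 3 replicate 2 or 3 or day 5 replicate 1 or 3. Fos, an AP-1 subunit, went from 1.70, 2.72 and 5.12 to 61.4, 52.1 and 34.3 CPM (4.00 ± 0.35), Zfp36, which destabilizes mRNA, rose by 2.84 ± 0.36, Jun by 2.88 ± 0.51 and the phosphatase gene Dusp1 by 1.76 ± 0.25, whereas Egr1, a target of ERK, fell by 1.37 ± 0.34 and Egr3 had a ratio of 9.57 (3.02 to 48.5) for day 3 over day 5.

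In the stress response that ATF4 directs, 4 of 19 genes rose and 1 fell (median 0.43). These counts lay near or under the shares over all tested genes, of which 19.2% rose and 17.8% fell. Without both libraries numbered 3 the counts were 4 and 4 and the median was -0.04, and 3 fell without day 3 replicate 3 and 2 without day 5 replicate 1 or 3. Atf3, a factor induced by many stresses, was at 0.678, 1.51 and 0.465 CPM on day 3, at a mean of 6.88 on day 4 and at 74.7, 59.1 and 59.8 on day 5 (6.08 ± 0.38, adjusted p = 2.63e-09; 6.73 without day 3 replicate 2). Ddit3, CHOP, rose by 2.69 ± 0.28 and Atf4 by 0.89 ± 0.18, and the lipoprotein receptor gene Vldlr by 2.13 ± 0.42 (2.95 without day 3 replicate 3). Asns and Psat1, which make amino acids, and the pseudokinase gene Trib3 did not pass, with Asns at 0.46 ± 0.27 (adjusted p = 0.186), Psat1 at -0.31 ± 0.21 (0.257) and Trib3 at 0.70 ± 0.45 (0.235), and the cystine transporter gene Slc7a11 fell by 4.16 ± 0.67 (-3.51 without day 3 replicate 3). Apoptosis regulators had 5 higher and 4 lower of 17 (median 0.09), but 3 and 1 without both libraries numbered 3, and 1 or 2 were higher without day 3 replicate 1 or 2 or day 5 replicate 1 or 2 and 2 lower without day 5 replicate 3. Bid, which links death receptors to mitochondria, fell from 31.7, 35.7 and 24.2 to 10.1, 10.3 and 12.4 CPM (-1.48 ± 0.23). Bik had 0 counts on day 3 and was at least 3.35-fold higher, and Cflar (-0.91 ± 0.27) and Xiap (-0.92 ± 0.25), inhibitors of caspase activation, fell. The calls of Bik, Cflar and Xiap were lost without both libraries numbered 3 (adjusted p = 0.063, 0.0835 and 0.123). Casp8, an initiator caspase, fell by 1.11 ± 0.36, and Bcl2 (2.37 ± 0.84), Bcl2l11 (0.62 ± 0.22), Apaf1 (0.59 ± 0.21) and Mcl1 (0.54 ± 0.20) rose.

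Lysosomal genes rose in 8 of 17 cases and fell in 2 (median 0.76), with 5 higher without day 5 replicate 3 and 1 lower without any 1 of the 6 libraries but day 3 replicate 1. Without both libraries numbered 3, 8 rose and 1 fell. The cathepsin genes Ctsa and Ctsd rose by 1.81 ± 0.34 and 1.28 ± 0.33 and the hexosaminidase gene Hexa by 1.14 ± 0.28, while Ctsc fell by 1.07 ± 0.28 and Gusb by 0.69 ± 0.25. Cholesterol synthesis stood at 1 higher and 3 lower of 21 (median -0.04), the same without both libraries numbered 3, but at 0 and 6 with the GC trend removed and at 2 and 2 without day 3 replicate 1. The falls also numbered 2 without day 3 replicate 2 or day 5 replicate 2. Ebp, a sterol isomerase, fell by 1.34 ± 0.24 from 98.0, 72.9 and 51.6 to 22.1, 28.4 and 37.1 CPM, Hsd17b7 by 0.91 ± 0.27 and Nsdhl by 0.65 ± 0.23. The Hsd17b7 call was lost without day 5 replicate 2 (-0.72, adjusted p = 0.0652) and without both libraries numbered 3 (-0.69). The Nsdhl call was lost without day 3 replicate 1 or 2 or day 5 replicate 2 or 3, at values from -0.67 to -0.46.

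Genes of DNA replication and mitosis were called in both directions or not at all. Of 24 S phase genes 3 rose and 4 fell (median -0.20), near or under the shares over all tested genes (19.2% and 17.8%). Without both libraries numbered 3 the counts were 3 and 9. The falls numbered 8 without day 3 replicate 3 and 2 without day 3 replicate 1 or 2 or day 5 replicate 1 or 2, and 5 rose without day 3 replicate 1. Slbp, which binds histone mRNA, rose by 1.12 ± 0.23, Cdc6, a licensing factor, by 0.82 ± 0.19, and Mcm4, of the replicative helicase, fell by 0.66 ± 0.18. Chaf1a, a histone chaperone subunit, rose by 1.65 ± 0.43, a call lost without both libraries numbered 3 (1.10, adjusted p = 0.0919). Ccne1 (-0.80 ± 0.29), Gins1 (-0.81 ± 0.25) and Pola1 (-0.65 ± 0.21) fell. Of the 24 tested G2 and M phase members, 3 rose and none fell (median 0.20), against 2 and 3 without both libraries numbered 3, where the median was 0.01, and 5 rose without day 3 replicate 1, 1 without day 3 replicate 2, and 3 fell without day 3 replicate 3. With the GC trend removed 6 rose and 2 fell. Anln, a cytokinesis scaffold, rose by 0.92 ± 0.20, and Mki67 by 0.76 ± 0.22, a call lost without day 3 replicate 1 (0.62) or 2 (0.69). The same held for Kif20a (1.33 ± 0.42) without day 3 replicate 2 or 3 or day 5 replicate 3. Cyclins and CDK inhibitors of G1 changed in both directions. Cdkn1c (chromosome 7, 143458339 to 143461050), the imprinted CDK inhibitor p57 that stops division in trophoblast giant cells, went from 4.92, 5.90 and 5.58 to 118, 126 and 103 CPM (4.40 ± 0.31, adjusted p = 4.73e-09). Cyclin D2 (Ccnd2) fell from 47.0, 60.3 and 63.5 to 11.2, 6.97 and 7.18 CPM (-2.75 ± 0.27), cyclin D1 (Ccnd1) by 2.09 ± 0.29 and their partner Cdk6 by 1.69 ± 0.27. Of the INK4 inhibitors, Cdkn2d rose by 1.79 ± 0.36 and Cdkn2b fell by 1.54 ± 0.38. In that list 2 of 13 rose and 4 fell (median 0.16), against 3 and 5 without both libraries numbered 3.

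In the list of imprinted genes 4 of 14 rose and 1 fell (median 0.28), against 6 and 1 without both libraries numbered 3, with none lower without day 3 replicate 1 or day 5 replicate 1 and 2 lower without day 3 replicate 3. Cdkn1c and Peg10, imprinted as well, are counted with the G1 and the trophectoderm genes. Peg3, a paternally expressed zinc finger gene, went from 40.0, 57.1 and 58.6 to 645, 279 and 278 CPM (2.95 ± 0.32, adjusted p = 8.47e-07), and Peg10, which the placenta needs, from 52.6, 74.8 and 58.9 to 598, 304 and 239 (2.61 ± 0.31). H19, a maternally expressed noncoding RNA, had 1.53, 4.99 and 0.465 CPM on day 3 and 47.6, 37.1 and 19.2 on day 5 (3.79 ± 0.73, and 5.00 without day 3 replicate 2). Sgce rose by 1.70 ± 0.26 and Igf2r by 1.12 ± 0.27, while Igf2 was too low to test and Snrpn fell by 0.99 ± 0.29. Genes of the 2-cell stage had 1 higher and none lower of 14 (median 0.16), and none was called without both libraries numbered 3. That gene, Gm2016, had 14.4, 14.5 and 22.8 and 36.7, 81.7 and 41.3 CPM, and its call (1.63 ± 0.51) was lost without any 1 of the 3 day 3 libraries or day 5 replicate 2. Zscan4f, which has near-identical copies, had 14.2, 5.29 and 10.2 and 13.9, 34.6 and 32.4 CPM and did not pass (adjusted p = 0.152).

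Feeder fibroblast markers fell in 18 of 26 tested cases and rose in 1 (median -2.19), against 15 and 2 without both libraries numbered 3. Ccl2, a chemokine that fibroblasts secrete, fell from 161, 157 and 305 to 13.5, 18.4 and 15.1 CPM (-3.73 ± 0.42), Vim by 2.14 ± 0.31 and Prrx1 by 3.57 ± 0.55. S100a6, which epithelia also express, went from 143, 165 and 83.5 to 799, 1438 and 512 CPM (2.81 ± 0.33). Of 11 mitochondrially encoded genes 8 fell and none rose (median -1.27), but 3 fell without both libraries numbered 3 (median -0.62) and 5 without day 3 replicate 3 or day 5 replicate 3. mt-Cytb had 13634, 9198 and 30814 CPM on day 3 and 7409, 4951 and 4709 on day 5 (-1.65 ± 0.40, and -1.01 without day 3 replicate 3). Its call was lost without both libraries numbered 3 (-0.89, adjusted p = 0.0537).

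Ranked by size over all genes, 10 rises and 10 falls were taken. The rises were led by Serpinb9g, with 1 count on day 3 and a ratio of 435 (95% counting interval 77.6 to 17200). Serpinb9e rose by 6.11 ± 0.70 and Serpinb9f by 5.87 ± 0.66 (6.98 and 7.90 without day 3 replicate 2). These serpin genes, expressed in placenta, are a cluster of near-identical copies, so the reads of each are uncertain. Their lowest day 5 libraries stood at 9.70, 45.8 and 17.1 CPM, and the rule that picked these genes required no overlap between the days. Dppa1, Adm, Atf3, Plac1, Krt19 and Tinagl1, described above, were also among the 10, with Fam90a1b (6.24 ± 0.61, and 6.94 without day 3 replicate 2). The falls were led by Nkx1-2, a homeobox gene of the caudal epiblast, which went from 20.3, 26.2 and 20.5 CPM to 1 count in all on day 5, a ratio of 304 (54.2 to 12000). Its locus lies within the annotated span of Fgfr2, which rose. Aadac, a deacetylase, had 2 counts on day 5 and a ratio of 108 (29.5 to 893). Btla, an immune receptor gene, fell from 30.3, 23.1 and 32.3 to 0, 3.35 and 0.582 CPM (-4.59 ± 0.59; -3.97 without day 5 replicate 1 and -6.46 without day 5 replicate 2), and Fam196a by 4.56 ± 0.61 (-6.26 without day 5 replicate 3). Matrix and inflammation genes that fibroblasts also express were among the rest: Mmp3 (119.7, 138 and 602 and then 11.2, 8.09 and 7.76 CPM), Ccl7 (211, 203 and 403 and then 3.86, 11.7 and 12.4), Tnc, Pi15 and Serpinb2. Day 3 replicate 3, which had the highest sum of the 26 feeder markers, was the highest library for each of these 5. Without it Mmp3 moved from -4.98 ± 1.02 to -3.84, Tnc from -5.28 ± 0.86 to -4.66 and Pi15 from -4.43 ± 0.60 to -3.71, and the Serpinb2 call of -5.32 ± 1.46 was lost (-4.49, adjusted p = 0.059). Values also moved when a day 5 library was left out. Tnc was -6.36 without day 5 replicate 2, and Pi15 was -5.14 and Serpinb2 -7.58 without day 5 replicate 3. Serpinb2 was -4.72 without day 5 replicate 1. The entry Mir763 (-4.94 ± 1.00) rested on day 3 replicate 3, at 26.1 CPM against 2.20 and 2.12 in the others, was -2.77 without it, and lies within Hmga2, so its reads cannot be assigned to a microRNA. The part of feeder RNA in these falls was not tested.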

How the data were processed

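The authors deposited whole-number counts per gene for each library. Per the submitters' processing notes the tools include STAR 2.7.10b and HTSeq 0.13.5 with the genome build mm10. No annotation release or strand setting could be named, each being not given in the sources used here. The deposited counts were taken as they stand. The gene symbols were matched to GENCODE gene models of GRCm38 for positions and GC content.

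All 15 blastoid libraries entered a single fit with day as the factor (edgeR 4.0.16, R 4.3.3; TMM scaling, filterByExpr with a minimum count of 10 and total of 15, robust quasi-likelihood test), which gives the days a common estimate of spread. P-values were adjusted by Benjamini-Hochberg over all tested genes, with a threshold of 0.05. CPM are TMM-scaled, values after ± are SE on the log2 scale, and the prior count was 2. The test was tried on simulated data. Totals of the 15 blastoid libraries ran from 3684787 to 7607021 counts. Amplified reads carry no molecular identifiers, so counting intervals (exact, 95%) and the floor of 3 counts over a day cover counting error only. RefSeq promoters of GRCm38.p6 were searched by letters.

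Members and lists were chosen with earlier results of these data known. Genes were named by 3 rules: the 10 largest rises and falls with at least 10 CPM and no overlap, leaving out numbered gene models and pseudogenes; a set of 23 lineage genes; and up to 4 members of each of 33 lists with the smallest adjusted p. A few genes that these rules name are not reported here, and counts include them. Further list members were named after their values were seen, to give their role or those that did not pass. Alternatives were RLE and total-count scaling, 2 other filters, DESeq2 1.42.0, limma-voom 3.58.1, only the libraries of the days compared, a replicate block, a GC trend removed (spline, 6 df), thinned counts, no mitochondrially encoded genes, each library left out and, chosen after seeing the data, both libraries numbered 3 left out.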

Additional observations from a re-analysis of the deposited data

Results flagged for a closer look

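For 14 genes the change from day 3 to day 5 differed from the change from day 1 to day 3 in a test of the difference itself, with both changes drawing on the same day 3 libraries. In the epithelial genes the later change was the higher one, by a log2 difference of 8.44 for Krt18, 8.06 for Krt8, 7.01 for Gata2, 6.57 for Cldn4, 5.599 for Aqp3, 4.35 for Dsp, 3.51 for Cldn6 and 2.29 for Atp1b1. The Cldn4 value ranged from 5.94 to 7.24 and the Aqp3 value up to 6.42 when day 3 libraries were left out, and neither lost its call. The stress genes Cdkn1a and Mdm2 differed by 3.75 and 1.63 (adjusted p = 8.11e-05 and 0.00137), and Cdkn1a had 2.95 to 4.42 with 1 library left out. Pou5f1 differed by 2.43 (adjusted p = 0.00559), with a mean of 38.5 CPM on day 1, 3.67 on day 3 and 1.88 on day 5. Sox2 differed by -4.94, and by -4.11 without day 3 replicate 3. Nanog (-0.96, adjusted p = 0.0488) and Esrrb (-1.09, adjusted p = 0.0426) lay near the threshold. With the GC trend removed the difference shrank to 7.01 for Krt18, 6.51 for Krt8, 5.46 for Gata2, 5.11 for Cldn4, 4.82 for Aqp3, 2.49 for Cldn6 and 2.80 for Cdkn1a, all of which kept the call. Esrrb then had -2.24 (adjusted p = 0.000129), whereas Nanog (-0.61, adjusted p = 0.219) and Pou5f1 (0.90, adjusted p = 0.27) did not pass. Gata6, which did not pass otherwise, had -1.96 (adjusted p = 0.0478) in that fit.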

How the results depend on the processing

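No called gene was called in the opposite direction under any alternative. With only the libraries of the days compared in the fit, 1849 genes rose and 1778 fell; this fit holds fewer samples and kept 64.3% of the calls. Every other setting gave counts within 1.5 times those reported. Leaving out 1 library at a time gave 2407 to 3132 rising and 2232 to 2845 falling genes, and 2350 to 3082 genes above and 2542 to 3125 below the earlier change. With the replicate block 2679 rose and 2468 fell, and 2760 and 2755 lay above and below the earlier change. Deviations from the day means correlated at -0.211, -0.0359 and -0.262 between same-numbered libraries of days 3 and 5. Between differently numbered libraries the values reached 0.232. Replicate 3 had opposite GC differences on these days, so the correlations cannot tell whether same-numbered libraries belong together. The labels state no link beyond the number. Without both libraries numbered 3, 76.7% of the calls were kept, and of 155 named genes with a value 138 stayed on their side of the threshold, 14 lost the call and 3 gained it. The difference between the spans changed sign without day 3 replicate 3 for Cdh1 (-1.16 to 0.79 over the libraries left out) and Tjp1 (-1.01 to 0.0696), and without both libraries numbered 3 (0.83 and 0.23). Of the list medians larger than their spread between libraries of a day, that of G2 and M phase genes changed sign without day 3 replicate 3 (-0.0452, and up to 0.39 over the libraries left out). That of ATF4 response genes did so without both libraries numbered 3 (-0.0359). For late trophoblast genes it changed with no filter on low counts (2.20), where the genes too low to test enter. Medians nearer 0 changed sign as well, among them Wnt (0.44) and cholesterol synthesis (0.19) without day 3 replicate 3. Others were BMP (0.13) without both libraries numbered 3 and apoptosis (-0.12) without day 5 replicate 3. Otherwise the cause was not tested. Genes under about 1 CPM on both days rest on a few counts per library.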
